A study of Mus musculus with 6 samples.

Results

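The 571 genes described here were those whose locus covers 300 kb or more of the mouse genome in an RNA sequencing study of the adrenal gland. They were chosen by 2 values of the deposited count table, the width of the row and its counts. A row had to carry a single gene name, a width of 300 kb or more and at least 60 counts summed over the 6 libraries. Of 59699 loci in the table, 630 met the first 2 conditions, and 59 of these fell short of the counts. The study compared adrenal glands of wild-type (WT) mice with those of Armc5 knockout mice, labelled Armc5(-/-) and called KO here, with 3 samples in each group. All 6 samples came from female mice aged 30 weeks on a mixed background of 129 sv X CD1. The labels do not say whether each sample came from a separate animal, nor how the knockout allele was made, so the p-values below measure the spread between these samples.

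RNA polymerase II copies a gene from end to end, and in a long gene nearly all of what it copies is intron, so that the enzyme has to stay on the template far longer than on a gene of ordinary length. Factors that keep the enzyme moving and that stop it from ending too early, among them topoisomerases, the U1 small nuclear ribonucleoprotein and CDK12, are known to matter most for long genes. The protein ARMC5 brings a cullin 3 ubiquitin ligase to the largest subunit of RNA polymerase II, hence the view of output by gene length taken here. Long mammalian genes encode many synaptic adhesion molecules, ion channels and receptors of neurons, and several of the longest lie at common fragile sites, where chromosomes break when replication is slowed. In the adrenal gland such neuronal genes are used by chromaffin cells, the cells of the medulla that make catecholamines, whereas the surrounding cortex makes steroids.

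The 571 genes had a median width of 448 kb, from 300.255 kb for Kcnq3 to 2272 kb for Ptprd, and 50 of them covered 1000 kb or more. Among them 556 were protein coding by GENCODE M21, an annotation of the same genome build (GRCm38). The exons counted by the authors made up a median of 1.93% of the width in these genes and 19.8% in the 6860 genes of 10 to 50 kb used for comparison. The median exon length was 9635 bases against 4486.5 bases, with 19 and 9 separate exon blocks. The table gives read counts over these exons, so the values below describe RNA matching exons and not transcription along introns.

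The width of the row was not always the width of the gene. All 571 gene identifiers were found in GENCODE M21, and 385 rows had exactly the annotated span. For 91 members the annotated gene covered less than 300 kb, for 49 of them less than 50 kb and for 19 less than 10 kb. Tagln was annotated over 6.44 kb and had a row of 589 kb, Grn over 6.73 kb with a row of 300.455 kb, and Ctsb over 23.5 kb with a row of 535 kb. The submitters' processing notes name StringTie, a program that assembles transcripts from reads. These 91 rows are called extended rows below, the other 480 are called annotated long genes, and each main result is given for both.

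Promoter sequences from RefSeq (build GRCm38.p6, 250 bases before and 50 bases after the start of the gene) were matched by symbol for 436 of the 571 members, among them 10 of the 15 members that rose in KO. The median promoter of the members had 61.5% G and C and 19 CG dinucleotides, the 5232 matched genes of 10 to 50 kb had 59.7% and 19, and all 32851 promoters of the table had 52.7% and 7. A TATA box, searched as TATAAA on both strands, was in 8.03% of the members' promoters, 7.66% of those of the 10 to 50 kb genes and 13.6% of all. It was in 0 of the 10 promoters of members that rose, which says only that these letters are not in those windows. The 4 promoters below, with CG dinucleotides in capitals, belong to the 3 members with the smallest p among those that rose and to the member with the smallest p among those that fell. They differ in CG content, with 1 CG dinucleotide in Mgat4c, 10 in Dnah9, 31 in Tpm4 and 35 in Pclo, where the 12 matched promoters of called members ranged from 1 to 37 (Nrcam). The windows are chr11:66168502-66168801 on the minus strand for Dnah9, and on the plus strand chr10:101681237-101681536 for Mgat4c, chr5:14514668-14514967 for Pclo and chr8:72135038-72135337 for Tpm4.
Dnah9: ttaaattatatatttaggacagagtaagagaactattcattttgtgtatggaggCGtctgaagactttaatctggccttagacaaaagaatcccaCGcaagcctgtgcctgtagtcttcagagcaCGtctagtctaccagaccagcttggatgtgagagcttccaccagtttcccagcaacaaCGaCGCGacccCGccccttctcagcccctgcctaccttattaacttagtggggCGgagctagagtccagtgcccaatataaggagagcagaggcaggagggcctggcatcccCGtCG
Mgat4c: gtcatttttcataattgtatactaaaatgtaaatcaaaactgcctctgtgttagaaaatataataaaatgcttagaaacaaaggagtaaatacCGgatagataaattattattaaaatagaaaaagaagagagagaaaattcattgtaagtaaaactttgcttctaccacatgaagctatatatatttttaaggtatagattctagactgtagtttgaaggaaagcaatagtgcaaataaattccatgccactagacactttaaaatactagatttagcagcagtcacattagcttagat
Pclo: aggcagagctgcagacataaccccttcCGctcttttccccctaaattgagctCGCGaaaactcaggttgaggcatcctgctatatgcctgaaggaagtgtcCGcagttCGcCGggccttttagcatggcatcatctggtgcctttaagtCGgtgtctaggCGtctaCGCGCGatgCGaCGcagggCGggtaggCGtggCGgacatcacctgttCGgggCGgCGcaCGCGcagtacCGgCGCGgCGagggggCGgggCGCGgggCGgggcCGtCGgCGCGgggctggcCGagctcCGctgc
Tpm4: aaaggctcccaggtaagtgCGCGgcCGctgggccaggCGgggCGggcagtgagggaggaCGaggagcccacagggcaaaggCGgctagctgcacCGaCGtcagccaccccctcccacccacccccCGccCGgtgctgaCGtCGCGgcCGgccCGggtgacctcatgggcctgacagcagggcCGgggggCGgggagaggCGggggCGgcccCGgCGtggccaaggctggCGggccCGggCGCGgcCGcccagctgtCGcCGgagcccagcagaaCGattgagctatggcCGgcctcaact

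Libraries held 70547288 to 130573434 counts over all loci. Armc5 had 26.8 ± 1.35 CPM in WT and 3.59 ± 0.0632 CPM in KO (mean ± SD, n = 3 each; CPM, the usual depth-scaled count, used a library size scaled by the TMM method). Its log2 fold change was -2.90 (edgeR quasi-likelihood test, adjusted p = 0.000410), and the groups did not overlap. In KO replicate 3, genes of liver cells summed to 2912 CPM, against 15.2 CPM in WT replicate 1 and less in the other 4 libraries. WT replicate 1 had the highest sum of cortex markers, 38376 CPM, while the other 5 libraries ranged from 19267 to 29796 CPM. Results that rest on these libraries are given with and without them. Together the 571 genes held 3.29% to 3.65% of each library's counts. The predicted pseudogene Gm28437, named after its value was seen, held 4735999 of their counts and may share reads with a near-identical copy. Without it the share was 2.45% to 2.84% in WT and 2.83% to 2.95% in KO.

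Of the 569 members that could be tested, 15 rose and 3 fell in KO (edgeR quasi-likelihood test, adjusted p under 0.05 over all 21358 tested loci). Those that rose included an axonemal dynein heavy chain, a glycosyltransferase, proteins of the presynaptic active zone and synaptic adhesion, and a glutamate receptor. Those that fell were all extended rows, and 14 of those that rose were annotated long genes. Over all tested loci 1.84% were called, 1.41% as higher and 0.431% as lower, against 3.16% of the tested members. In bulk tissue, fewer cells of a type and less RNA per cell cannot be told apart. Leaving out WT replicate 1, 2 or 3 gave 16, 51 or 1 calls among the members, beside 1.74%, 2.95% and 0.0886% of all loci tested. Without WT replicate 1 the calls were 9 higher and 7 lower, and 8 of them were among the 18. Without WT replicate 2 they were 42 higher and 9 lower, with 16 of the 18. Leaving out KO replicate 1, 2 or 3 gave 1, 2 or 2, beside 0.0672%, 0.099% and 0.171%. With WT replicate 1 and KO replicate 3 both left out, edgeR called 0 members and 0.0754% of all loci, and 167 members had an unadjusted p under 0.05, against 202 with all 6 libraries. DESeq2 made 131 calls among the members, 95 higher and 36 lower, and 12.4% of all loci, 7.49% higher and 4.88% lower. Limma-trend made 56, 53 higher and 3 lower, and 4.75% of all loci, 4.48% and 0.276%. Each of these 2 sets held all 18 members.

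The scale of the libraries changed the number of calls and their split. With total counts in place of TMM, 36 members were higher and 1 lower, and 3.15% of all loci were called, 2.98% higher and 0.164% lower. When each library was scaled to equal counts of Rn7sk, the RNA of the 7SK particle, 41 members were higher and 1 lower, and 3.33% of all loci were called, 3.13% and 0.197%. With RLE factors 17 members and 1.78% of all loci were called, with at least 1 CPM required in 3 libraries 34 and 4.0%, and with the replicate number as a block 1 and 0.0234%.

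**Figure D1:**
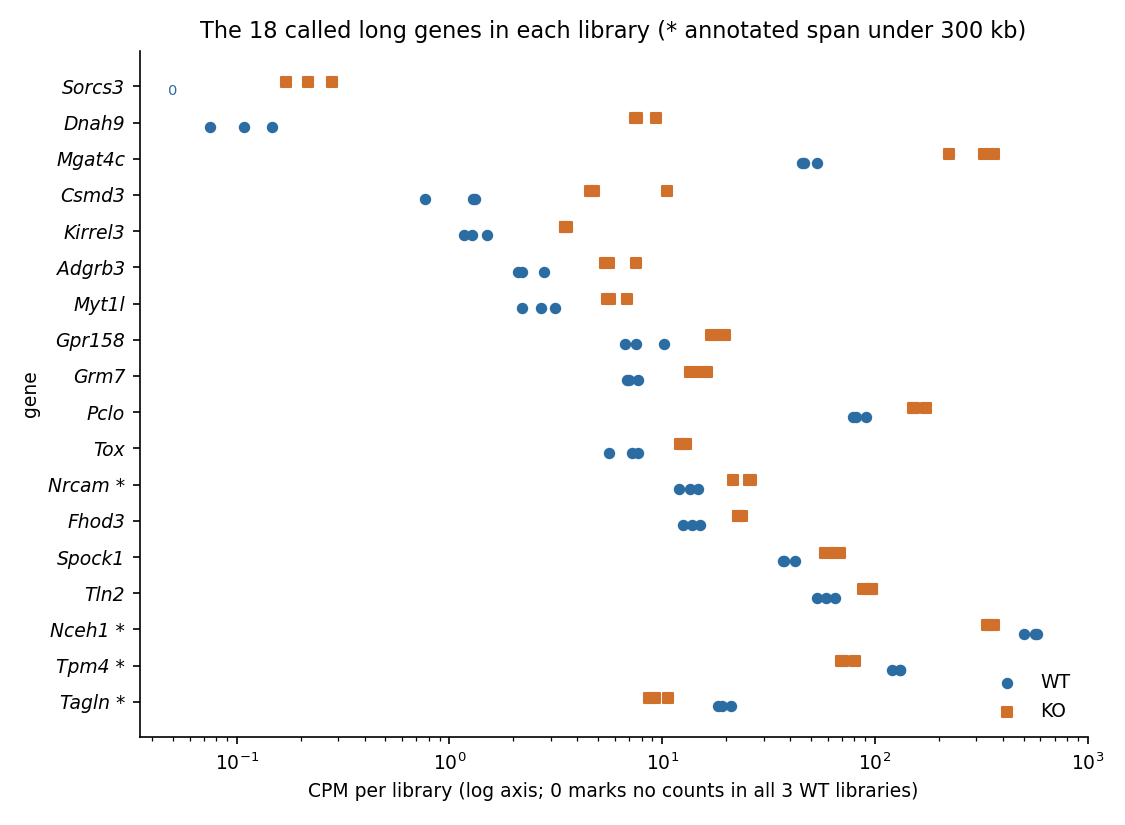
CPM of the 18 called long genes in each library, on a log axis, with circles for the 3 WT and squares for the 3 KO libraries and the genes ordered by fold change. In each gene the KO libraries lie on 1 side of all WT libraries, from Dnah9 (0.0748 to 0.147 CPM in WT, 7.45 to 9.39 CPM in KO) to Tagln (18.2 to 21.2 CPM and 8.70 to 10.7 CPM).

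Dnah9 (chr11:65831282-66168551, 337 kb) encodes a heavy chain of the outer dynein arm, the motor of motile cilia. It was at 0.109, 0.147 and 0.0748 CPM in WT replicates 1 to 3 and at 7.45, 9.39 and 7.65 CPM in KO replicates 1 to 3. Every KO library was thus far above every WT library, where the gene was close to the limit of detection. The rise was 71.9-fold, or 6.17 ± 0.30 (SE) as a log2 fold change, with an edgeR adjusted p = 0.00176. Dnah9 was called in each of the 6 fits with 1 library left out, the only member of the 18 of which this held.

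Mgat4c (chr10:101681487-102399411, 718 kb) encodes a member of the MGAT4 family of N-acetylglucosaminyltransferases, which branch the sugar chains of glycoproteins. Its levels were 46.5, 53.6 and 45.3 CPM in WT and 325, 223 and 365 CPM in KO. The groups did not overlap, and KO replicate 2 was the lowest of the KO libraries. The gene rose 6.29-fold (log2 fold change 2.65, SE 0.20, edgeR adjusted p = 0.00796) and was called in 4 of the 6 fits with 1 library left out, where its adjusted p ranged from 0.00906 to 0.0726.

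Pclo (chr5:14514918-14863459, 349 kb) encodes piccolo, a scaffold of the presynaptic active zone. It had 78.7, 90.8 and 81.8 CPM in WT and 173, 151 and 152 CPM in KO, without overlap. This was a rise of 1.90-fold (edgeR adjusted p = 0.0181). Grm7 (chr6:110645581-111567230, 922 kb) encodes a presynaptic metabotropic glutamate receptor. Its levels were 7.73, 7.01 and 6.85 CPM in WT and 13.5, 16.3 and 14.8 CPM in KO, 2.07-fold higher (edgeR adjusted p = 0.0205). All KO values of Grm7 again lay above all WT values. Each of these genes was called in 2 of the 6 fits with 1 library left out.

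Among the role lists, synaptic adhesion genes held the largest group of calls, 5 of 41 (12.2%), all higher, beside 1.41% of all tested loci. Of these 5, Sorcs3 met the count minimum through the KO libraries alone, so it could only appear as higher. Kirrel3 (chr9:34485894-35036716, 551 kb), which encodes an immunoglobulin-like adhesion protein, had 1.16, 1.50 and 1.28 CPM in WT and 3.49, 3.50 and 3.58 CPM in KO. It rose 2.67-fold (edgeR adjusted p = 0.0257), and its KO libraries were nearly level with each other. Nrcam (chr12:44328885-44659134, 330 kb), a neuronal cell adhesion molecule whose annotated span is 273 kb, had 13.5, 14.8 and 11.9 CPM in WT and 25.7, 26.2 and 21.6 CPM in KO (1.83-fold, edgeR adjusted p = 0.0392). Csmd3 (chr15:47580637-48792063, 1211 kb), a membrane protein with CUB and sushi domains, had 0.770, 1.32 and 1.30 CPM in WT and 4.80, 10.5 and 4.59 CPM in KO. KO replicate 2 stood above the others, although the groups did not overlap. Csmd3 was 5.88-fold higher (edgeR adjusted p = 0.0464) and was called in 0 of the 6 fits with 1 library left out, where its adjusted p ranged from 0.0636 to 0.160.

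The other 2 called genes of the synaptic adhesion list were named after their values were seen. Adgrb3 (chr1:25064709-25830734, 766 kb), an adhesion G-protein-coupled receptor, rose 2.61-fold (edgeR adjusted p = 0.0398). Sorcs3 (chr19:48206025-48805505, 599 kb) is a receptor of the sortilin family that was placed in this list and may not be an adhesion gene. It had 0 counts over the WT libraries and 72 over the KO libraries. With the 3 WT libraries set to a floor of 3 counts together, that is at least 23.6-fold higher, counting error only (edgeR adjusted p = 0.0464, called in 0 of the 6 fits with 1 library left out).

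The remaining 6 members that rose were outside the synaptic adhesion and receptor lists. Fhod3 (425 kb), a formin that builds actin filaments, had 12.5, 15.1 and 13.7 CPM in WT and 22.7, 22.8 and 23.6 CPM in KO (1.67-fold, edgeR adjusted p = 0.0339). Spock1 (chr13:57421195-57908332, 487 kb), a secreted proteoglycan, had 37.5, 42.1 and 37.1 CPM in WT and 58.0, 64.5 and 68.3 CPM in KO (1.64-fold, edgeR adjusted p = 0.0345). Neither gene overlapped between the groups. Named after their values were seen, Tln2, which links integrins to actin, rose 1.59-fold (edgeR adjusted p = 0.0398), Gpr158, a G-protein-coupled receptor of neurons, 2.24-fold (0.0432), Myt1l, a zinc finger factor of neurons, 2.24-fold (0.0468), and Tox, a nuclear protein with an HMG box, 1.83-fold (0.0489). Of these 4, each was called in 1 of the 6 fits with 1 library left out, that without WT replicate 2.

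The 3 members that fell were extended rows of abundantly counted, ordinary genes. Tpm4 (chr8:72130174-72539248, row of 409 kb, annotated gene of 18.2 kb), a tropomyosin of actin filaments, had 132, 131 and 120 CPM in WT and 69.5, 80.4 and 70.9 CPM in KO, 1.73-fold lower (edgeR adjusted p = 0.0204). Tagln (chr9:45346779-45936058, row of 589 kb), transgelin, an actin-binding marker of smooth muscle, had 18.2, 21.2 and 19.2 CPM in WT and 8.70, 9.26 and 10.7 CPM in KO, 2.05-fold lower (edgeR adjusted p = 0.0205). Nceh1 (chr3:27182965-27602014, row of 419 kb, annotated gene of 102 kb), which hydrolyses cholesterol esters, had 577, 504 and 568 CPM in WT and 363, 336 and 343 CPM in KO, 1.58-fold lower (edgeR adjusted p = 0.0396). None of these 3 overlapped between the groups. Among 11 tested markers of smooth muscle and fibroblasts, Tagln was the only edgeR call, 1 was higher and 3 were lower at an unadjusted p under 0.05, and DESeq2 called 1 higher and 2 lower. Acta2, the actin of smooth muscle, was at 16.2, 21.4 and 19.0 CPM in WT and 7.16, 5.94 and 10.5 CPM in KO, without overlap (log2 fold change -1.26, edgeR adjusted p = 0.0570). The summed level of the list, of which Dcn, a fibroblast proteoglycan, was the largest part, was 350 to 487 CPM in WT and 295 to 401 CPM in KO. The part of these cells in the fall of Tagln was not tested.

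Short of the threshold, the members leaned to higher levels in KO. With an unadjusted edgeR p under 0.05, 133 members were higher and 69 lower. The corresponding shares of all tested loci were 12.5% and 9.73%, or 22.2% in both directions. In 140 members all KO libraries were above all WT libraries and in 85 all were below, where 16.3% and 14.2% of all tested loci, 30.5% in both directions, showed these patterns. Among the annotated long genes the split was 131 (27.3%) against 56 (11.7%), and among the extended rows it was 9 (9.89%) against 29 (31.9%). Of the 478 annotated long genes tested, edgeR called 14 (2.93%) higher and 0 lower, beside 1.41% and 0.431% of all tested loci. At an unadjusted edgeR p under 0.05, 126 of the 478 were higher and 47 lower, beside 12.5% and 9.73% of all tested loci. DESeq2 called 90 higher and 24 lower, beside 7.49% and 4.88% of all loci.

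To compare long genes with genes of ordinary length, the log2 ratio of each gene, the mean log2 CPM in KO minus that in WT, was set beside the median ratio of the 20 genes of 10 to 50 kb nearest to it in mean log2 CPM. The median ratio of the 571 members was 0.05, that of all tested loci was 0.00, and 54.8% of the members had a ratio above 0. Relative to matched genes the members were higher by a median of 0.12, and 336 of 571 lay above their matched genes. For the annotated long genes the difference was 0.16, with 293 of 480 above. Extended rows gave -0.03, with 43 of 91 above, and their median ratio was -0.17. No p is given for these medians, because genes are not replicates.

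Library by library, the members' median deviation from matched genes was -0.11, 0.01 and -0.04 in WT replicates 1 to 3 and 0.04, 0.13 and 0.02 in KO replicates 1 to 3. All KO values were above all WT values, but KO replicate 3 and WT replicate 2 were nearly level. The group means were -0.05 ± 0.06 and 0.07 ± 0.06 (SD, n = 3 each), so the difference of 0.12 between genotypes was about as large as the distance between the libraries of 1 genotype. It was 0.07 without WT replicate 1 and 0.15 without WT replicate 2, and 0.08 without both WT replicate 1 and KO replicate 3. For the annotated long genes the same left-out fits gave 0.10, 0.20 and 0.14.

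**Figure D2:**
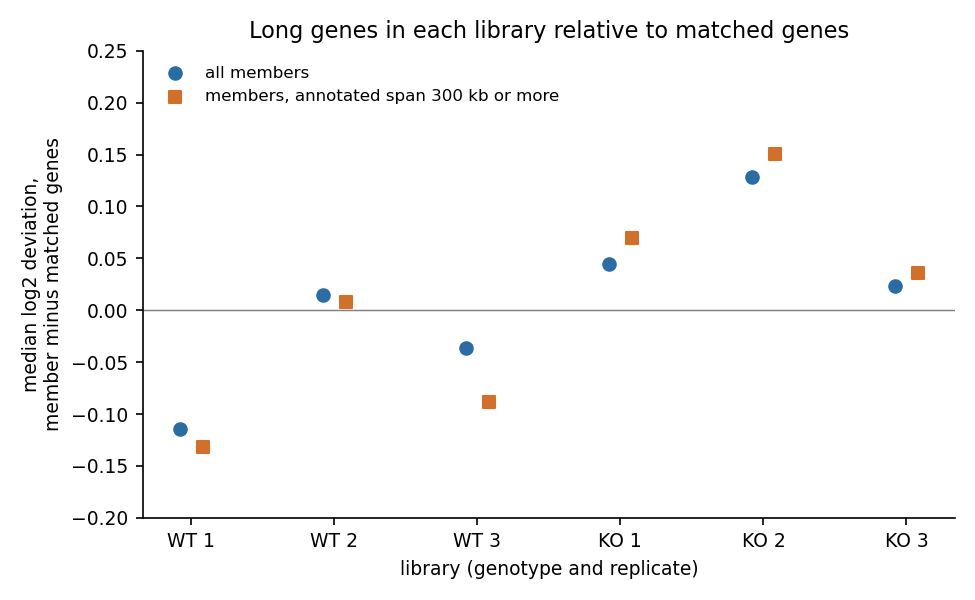
Median log2 deviation of the long genes from matched 10 to 50 kb genes in each library, for all 571 members (circles) and the 480 annotated long genes (squares). The KO libraries lie at 0.02 to 0.13 for all members and the WT libraries at -0.11 to 0.01, with WT replicate 2 close to KO replicate 3.

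By width, the median ratio was -0.02 in the 6860 genes of 10 to 50 kb, -0.04 at 50 to 100 kb, -0.02 at 100 to 200 kb, -0.03 at 200 to 300 kb, 0.03 in the 350 members of 300 to 500 kb, 0.08 in the 171 of 500 to 1000 kb and 0.15 in the 50 of 1000 kb or more. Genes under 10 kb also had a median above 0, at 0.08. Sorted by annotated span instead, the 3 longest classes had medians of 0.12, 0.15 and 0.15. The quartiles of each class reached well to either side of 0, and within the members width and ratio were nearly unrelated across genes (Spearman's rho 0.10 over 571 genes measured in the same 6 libraries).

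**Figure D3:**
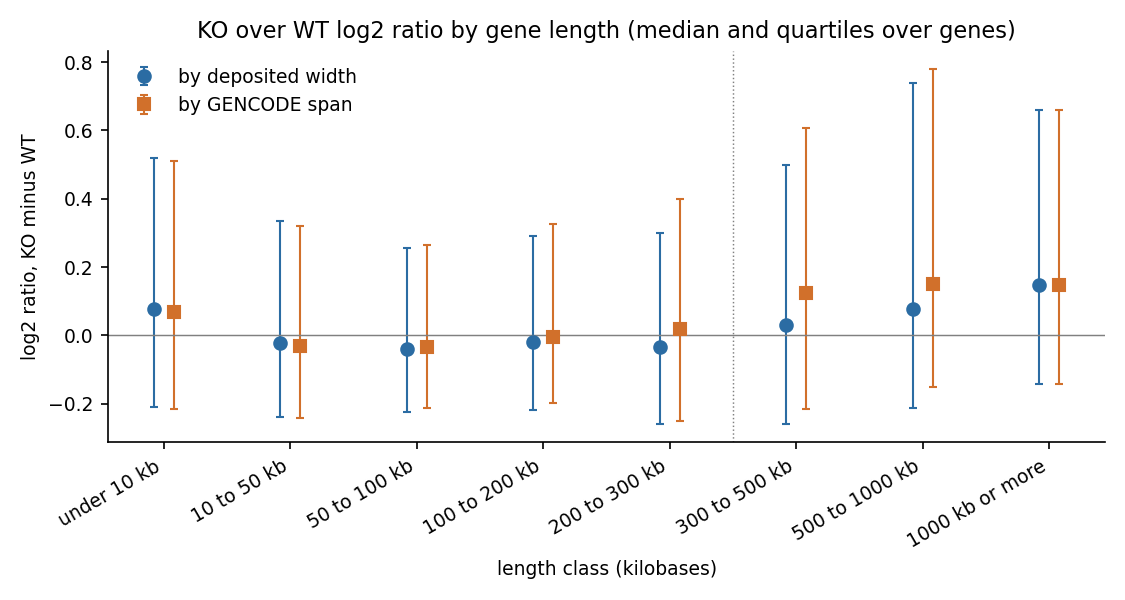
Median log2 ratio of KO to WT by length class, for single-name rows with 60 or more counts, sorted by deposited width (circles) or by annotated span (squares), with bars from the first to the third quartile over genes and a dotted line at 300 kb. The members' 3 classes by width have medians of 0.03, 0.08 and 0.15, and every bar crosses 0.

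The 3 longest members differed in ratio. Ptprd, a receptor tyrosine phosphatase of 2272 kb, had 249, 160 and 188 CPM in WT and 181, 183 and 267 CPM in KO, with overlap (log2 fold change 0.08, SE 0.22, edgeR adjusted p = 0.862). Dmd, the dystrophin gene of 2257 kb, had 55.4, 42.6 and 51.7 CPM in WT and 47.5, 47.7 and 43.8 CPM in KO, also with overlap (-0.11, SE 0.12, adjusted p = 0.629). Cntnap2, a neuronal adhesion gene of the neurexin superfamily with a width of 2245 kb, had 5.30, 5.73 and 2.47 CPM in WT and 8.40, 8.85 and 10.05 CPM in KO. Its groups did not overlap, yet the difference of 1.01 ± 0.32 (log2, SE) did not pass the test (edgeR adjusted p = 0.145).

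The ratio depended more on level than on width. With the members split by mean log2 CPM into 4 classes of 142 or 143 genes, the median ratio was 0.43 in the lowest class, 0.20 and 0.09 in the next, and -0.10 in the highest. Matched genes of 10 to 50 kb had 0.25, 0.05, -0.07 and -0.16 at the same levels. Taken gene by gene, the difference of a long gene from its own matched genes had medians of 0.23, 0.12, 0.14 and 0.07 from the lowest to the highest class. Across the 571 genes, level and ratio had a Spearman's rho of -0.26.

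**Figure D4:**
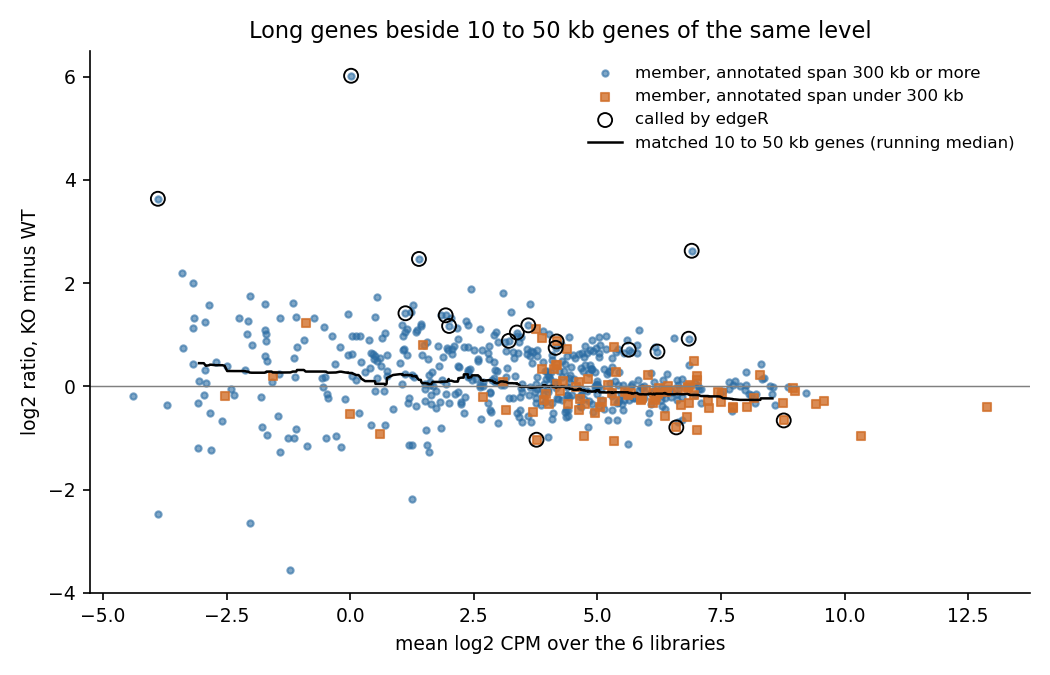
Log2 ratio of KO to WT against mean log2 CPM for each long gene, with circles for annotated long genes, squares for extended rows, rings for the 18 called genes and a line for the running median of matched 10 to 50 kb genes. The line falls from above 0 at low level to below 0 at high level, and 336 of the 571 points lie above their own matched genes.

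By role, neurotransmitter receptor genes and synaptic adhesion genes had the highest median ratios. In 5 role lists, synaptic adhesion, cadherins and catenins, axon guidance, ion channels and neurotransmitter receptors, the 111 members had a median ratio of 0.54. They were 0.45 above matched genes at the median. They included 6 calls (5.41%), all higher, beside 1.41% of all tested loci. Sorcs3, which met the count minimum through KO alone, was 1 of the 6. In 52 of the 111 (46.8%) all KO libraries were above all WT libraries, and in 7 (6.31%) all were below. Over all tested loci these shares were 16.3% and 14.2%. The 460 members outside these lists had a median ratio of 0.00 and differed from matched genes by 0.07. They included 9 genes called higher and 3 lower, together 2.62% of those tested, beside 1.84% of all loci. In 88 of the 460 (19.1%) all KO libraries were above all WT libraries, and in 78 (17.0%) all were below. The 372 annotated long genes among the 460 had a median ratio of 0.05 and were 0.12 above matched genes at the median. Of these 372, 215 lay above matched genes, 9 were called higher (2.43% of those tested) and 0 lower. All KO libraries were above all WT libraries in 81 of the 372 (21.8%) and below in 49 (13.2%). For all members, without WT replicate 1 the difference from matched genes was 0.48 inside and 0.02 outside the 5 lists. Without WT replicate 2 it was 0.57 and 0.10. The members of the lists were assigned from general knowledge of their function, with earlier results of these data known, and 251 members were in no list. Those 251 held 8 calls (3.2% of those tested), 5 higher and 3 lower, with the neuronal genes Pclo and Gpr158 among those higher.

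The 41 synaptic adhesion genes had a median ratio of 0.64, and 28 lay above matched genes. With an unadjusted edgeR p under 0.05, 20 were higher in KO, the 5 called genes among them, and 3 were lower. Astn1, which guides neurons along glia and had the highest mean CPM of the list, was at 25.6, 57.0 and 41.6 CPM in WT and 88.4, 84.9 and 79.6 CPM in KO, without overlap (log2 fold change 1.03, edgeR adjusted p = 0.107). Tenm4, a teneurin, was at 27.7, 77.4 and 92.5 CPM in WT and 43.7, 50.4 and 57.3 CPM in KO. Its WT libraries enclosed the KO libraries (-0.38, adjusted p = 0.623).

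Of 11 neurotransmitter receptor genes, Grm7 was the only call, and the median ratio was 0.70. At an unadjusted edgeR p under 0.05, 5 of the 11 were higher and 2 lower, and DESeq2 called 5 higher and 1 lower. All KO libraries were above all WT libraries in 5 (45.5%) and below in 2 (18.2%), beside 16.3% and 14.2% of all tested loci. Gabrg3, a subunit of the GABA-A receptor, had a log2 fold change of -0.57 (edgeR adjusted p = 0.465). The 30 ion channel genes had a median ratio of 0.38, with 23 above matched genes. In edgeR 0 of them were called, 11 had an unadjusted p under 0.05 and a higher level and 1 a lower level, and DESeq2 called 9 higher and 1 lower. Cacna2d1 and Cacna1c, calcium channel subunits with the highest mean CPM of the list, had log2 fold changes of -0.14 (adjusted p = 0.570) and 0.16 (0.631) and overlapped between the groups.

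Axon guidance genes, 17 in number, had a median ratio of 0.48, and 14 lay above matched genes. By edgeR 0 were called and 7 were higher with an unadjusted p under 0.05, 1 was lower, and DESeq2 called 5, all higher. Sema5a, a semaphorin, was at 68.9, 119 and 37.2 CPM in WT and 122, 129 and 135 CPM in KO (0.78, edgeR adjusted p = 0.288), whereas Robo1, a receptor for Slit proteins, was at 524, 241 and 369 CPM and at 340, 410 and 340 CPM (-0.06, adjusted p = 0.926). WT replicates were spread widely in both genes. The 12 cadherins and catenins had a median ratio of 0.32 and 0 edgeR calls, with 5 higher and 2 lower at an unadjusted p under 0.05 and 4 called higher by DESeq2. Pcdh15, a protocadherin, had a log2 fold change of 0.35 (adjusted p = 0.117) and Cdh4, a cadherin, 0.31 (0.240).

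**Figure D5:**
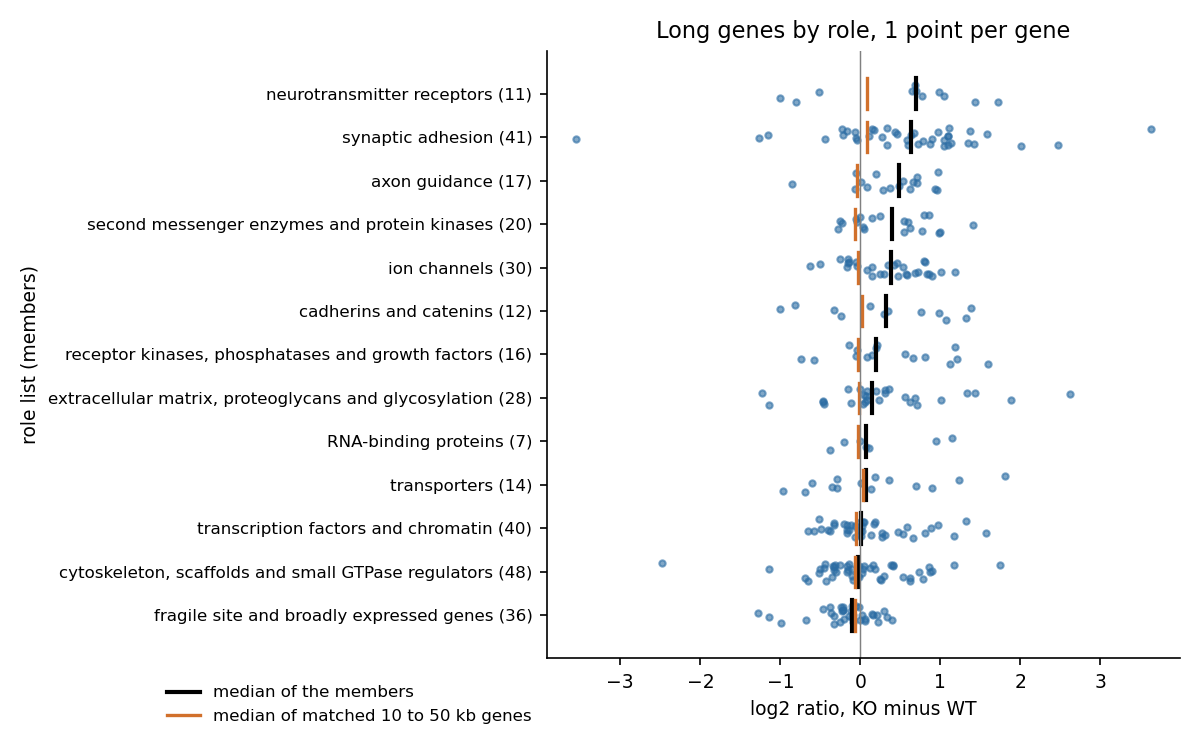
Log2 ratio of KO to WT of each long gene in 13 role lists, with the number of members in brackets, a black bar at the members' median and a coloured bar at the median of their matched 10 to 50 kb genes. Neurotransmitter receptors (0.70) and synaptic adhesion genes (0.64) have the highest medians, and fragile site and broadly expressed genes (-0.11) the lowest.

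Most markers of chromaffin cells and of neurons moved with these lists. Of 20 tested chromaffin markers 5 rose (Hand2, Phox2a, Chga, Isl1 and Dbh) and 0 fell, where 1.41% of all tested loci rose. In the lower direction 0 of the 20 had an unadjusted p under 0.05. Their summed level was 3164 to 4547 CPM in WT and 6321 to 7011 CPM in KO. Of 13 tested neuron markers 4 rose (Stmn2, Nefm, Tubb3 and Uchl1) and 0 fell. The sum of the 13 was 132 to 169 CPM in WT and 243 to 278 CPM in KO. Snap25 is in both the chromaffin and the neuron list, at 36.3 to 52.2 CPM in WT and 66.6 to 78.9 CPM in KO. At an unadjusted edgeR p under 0.05, 9 of the 13 were higher and 0 lower. A log2 fold change below 0 was seen in 3, Gap43 (-0.59), Rbfox3 (-0.38) and Nefl (-0.05). Rbfox3 was at 3.21, 2.48 and 2.92 CPM in WT and 2.41, 1.95 and 2.24 CPM in KO, without overlap. None of the listed markers of either type was at 0 in all libraries. Of 16 listed markers of cortex cells, 11 had a row with a single gene name, and Cyp11a1, Hsd3b1, Hsd3b6, Cyp11b1 and Cyp11b2 did not. The 11 had a median ratio of -0.20 and 0 edgeR calls. At an unadjusted edgeR p under 0.05, Dab2 was higher (log2 fold change 0.42, adjusted p = 0.101) and Star lower (-1.10, 0.103), both without overlap. DESeq2 called 1 of the 11 higher and 1 lower. Markers of endothelial cells had a median ratio of -0.42 and those of Schwann and other glial cells -0.61, without a call by edgeR. Of 10 endothelial markers 10 had a ratio below 0, 6 were lower and 0 higher with an unadjusted edgeR p under 0.05, 6 were called lower by DESeq2, and their sum was 883 to 1072 CPM in WT and 679 to 839 CPM in KO. Of 11 Schwann and glial markers 9 had a ratio below 0, 6 were lower and 1 higher with an unadjusted edgeR p under 0.05, 3 were called lower by DESeq2, and the sums of the groups overlapped. The part of these cell types in the ratios of the long genes was not tested.

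Among long genes of other roles, enzymes of second messengers and protein kinases also had ratios above 0. Their 20 members had a median of 0.39, beside 0.38 for ion channels and 0.32 for cadherins and catenins, and 16 lay above matched genes. In edgeR 0 were called, 9 were higher and 0 lower at an unadjusted p under 0.05, and DESeq2 called 7 higher. The list's members with the highest mean CPM were at neither extreme, with log2 fold changes of -0.01 for Mast4, a microtubule-associated kinase (adjusted p = 0.968), and 0.05 for Cask, a scaffold kinase of synapses (0.817). Receptor kinases, phosphatases and growth factors, 16 genes, had a median of 0.20, and Ptprg, a receptor phosphatase, was at -0.04 (adjusted p = 0.832). In edgeR 0 of the 16 were called, 7 were higher and 1 lower at an unadjusted p under 0.05, and DESeq2 called 7 and 1.

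The 48 members of the cytoskeleton, scaffolds and regulators of small GTPases had a median ratio of -0.02, and the 40 transcription and chromatin factors 0.01. In the first, edgeR called 0 of 47 tested, with 8 higher and 8 lower at an unadjusted p under 0.05, and DESeq2 called 6 and 4. The called genes Fhod3, Tln2, Tpm4 and Tagln, described above as acting on actin, were in no role list and are not counted here. The second held the called genes Myt1l and Tox. Lpp and Dock1, which act in cell adhesion and migration, had log2 fold changes of -0.02 (edgeR adjusted p = 0.939) and -0.36 (0.113), and Rere, a nuclear regulator of development, -0.15 (0.621). The direction of Lpp and of Rere depended on the scaling, as it did for Robo1, Mast4, Ptprg, Cacna2d1 and Dmd, which were above 0 with total counts alone or with equal Rn7sk counts.

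Matrix, proteoglycan and glycosylation genes, 28 in number, had a median ratio of 0.14 and held Mgat4c and Spock1. Vwa8, the second of the list by mean CPM, may not belong to any of these roles and had a log2 fold change of -0.47 (edgeR adjusted p = 0.0852). The 14 transporters had a median of 0.07 and 0 edgeR calls, 3 higher and 3 lower at an unadjusted p under 0.05 and 1 and 2 by DESeq2. Tmem135 had a log2 fold change of -0.62 (edgeR adjusted p = 0.0852). Among 7 RNA-binding proteins, with a median of 0.08, Snd1 and Rbms3 were at -0.00 (adjusted p = 0.992) and 0.06 (0.853). EdgeR called 0 of the 7, 2 were higher and 0 lower at an unadjusted p under 0.05, and DESeq2 called 2 higher.

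With TMM scaling, genes of fragile sites and other broadly expressed long genes mostly had ratios below 0. No median of this list is given for total counts or equal Rn7sk counts. Those scalings raised the median ratio of all tested loci to 0.23 and 0.20, so the sign of the list's median may depend on the scaling. Of 36 members, 10 had a ratio above 0, the median was -0.11, 0.08 below matched genes, and 11 lay above matched genes. All KO libraries were below all WT libraries in 10 of them (27.8%) and above in 1 (2.78%), beside 14.2% and 16.3% of all tested loci. EdgeR called 0, with 1 higher and 8 lower at an unadjusted p under 0.05, and DESeq2 called 0 higher and 5 lower. Fhit, a hydrolase of dinucleotides at a fragile site, with a width of 1612 kb, was at 4.48, 4.23 and 5.32 CPM in WT and 1.39, 3.004 and 1.66 CPM in KO. Its groups did not overlap (log2 fold change -1.22, edgeR adjusted p = 0.103). The members with the highest mean CPM were closer to 0, Oxr1, which protects against oxidative damage, at 0.01 (adjusted p = 0.974) and Vps13b, a lipid transfer protein, at -0.09 (0.548).

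Other members with large differences did not pass the test. Slc4a4, a bicarbonate cotransporter, was at 6.24, 5.81 and 2.59 CPM in WT and 12.6, 19.5 and 16.6 CPM in KO (log2 fold change 1.73, edgeR adjusted p = 0.0660). Slc7a11, a cystine and glutamate exchanger, was at 1.97, 10.3 and 6.27 CPM in WT and 1.43, 0.787 and 1.17 CPM in KO (-2.45, adjusted p = 0.0918). In both genes the groups did not overlap. WT replicate 1 of Slc7a11 lay close to the KO libraries. Dab1, an adaptor in reelin signalling, had a log2 fold change of -1.19 (adjusted p = 0.148) and Tspan5, a tetraspanin on an extended row, -1.24 (0.159).

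Apart from the pseudogene Gm28437, itself an extended row, the 3 members with the highest mean CPM were extended rows. Ctsb, a lysosomal protease, was at 1213, 2454 and 1962 CPM in WT and 967, 882 and 914 CPM in KO, without overlap (log2 fold change -1.03, edgeR adjusted p = 0.0924). Aldh2, an aldehyde dehydrogenase, and Sdc3, a syndecan, had log2 fold changes of -0.30 and -0.32. Over the 49 extended rows with an annotated gene under 50 kb, edgeR called 0 higher, with 2 higher at an unadjusted p under 0.05 and 1 called higher by DESeq2, and 2 lower, the median ratio was -0.23 and the difference from matched genes was -0.10.

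A list of 76 genes of polymerase II elongation and of factors known to serve long genes was followed beside the members. EdgeR called 0 of the 62 that were tested, 1 was higher and 4 lower at an unadjusted p under 0.05, and DESeq2 called 0 higher and 1 lower. With TMM scaling the median ratio was -0.11, and the summed level was 3982 to 4173 CPM in WT and 3673 to 3786 CPM in KO. As for the fragile site list, this direction may depend on the scaling. All KO libraries were below all WT libraries in 16 of these genes (25.8%) and above in 3 (4.84%), beside 14.2% and 16.3% of all tested loci. Polr2a, the largest subunit of the polymerase, had a log2 fold change of -0.36 (edgeR adjusted p = 0.268), Supt5, an elongation factor that rides on it, -0.33 (0.132), Cdk12, a kinase of its tail, 0.50 (0.162), and Top1, which relaxes supercoils, 0.23 (0.377).

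At the borders of the rule, Kcnq3 and Grn were just inside the width, with log2 ratios of 0.80 and -0.85, and Akap13 and Jazf1 just outside at 299.075 and 299.834 kb, with 0.10 and 0.43. By counts, 6330411D24Rik with 61 and Cpne4 with 62 were just inside, at -0.19 and 0.43, and Rp1 with 56 and Epha6 with 58 just outside, at 1.07 and 0.40. Exons of genes nested in long introns can overlap a member's exons, and whether counting used strand is not given in the sources used here.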

How the data were processed

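The table analysed holds whole-number read counts per locus, which the authors deposited as raw counts per the file headers, with each locus's width and exon length in bases. Deposited log2 CPM values, also made by the authors, entered 1 alternative only. The submitters' processing notes name Trimmomatic, STAR, Picard, StringTie, edgeR and the genome GRCm38. Versions, the counting program and its strand setting were not given in the sources used here. Per the labels' protocols, total RNA (250 ng) was freed of rRNA and made into strand-keeping libraries, read from both ends at 100 bases.

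Counts of the 53103 named loci went through filterByExpr (by group) and TMM scaling. The test was edgeR 4.0.16 in R 4.3.3, by glmQLFTest after a robust glmQLFit, two-sided, with Benjamini-Hochberg adjustment over 21358 loci. The 6596 loci without a name, 1.39% to 2.04% of a library, stayed out of library sizes. Log2 ratios used a prior count of 2 and covered all members whether or not they passed the filter. Standard errors (SE) of log2 fold changes were derived from the F statistic. Tested on simulated data for 20737 genes, the KO against WT test recovered 24% of 100 genes changed 2-fold and 86% of 100 changed 4-fold, with 12 false calls among 122.

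The named genes were, at most, the 8 called members with the smallest p in each direction, the 4 largest rises and 4 largest falls among members of at least 1 CPM without overlap, the 3 with the highest CPM and the 3 longest, the 2 with the highest CPM in each of 13 role lists and the neighbours of the thresholds, leaving out names of the Gm and Rik kinds except as such neighbours. Some genes that this rule names are not reported here. The members, lists and rules were chosen with earlier results of these data known. Alternatives were RLE factors, total counts, equal Rn7sk counts, other filters, a replicate block, left-out libraries, DESeq2 1.42.0, limma-trend (limma 3.58.1) and other matching. The split by annotated span and leaving out WT replicate 1 with KO replicate 3 were added after seeing the data.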

Additional observations from a re-analysis of the deposited data

How the results depend on the processing

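The count of 18 calls among the long genes, 15 higher and 3 lower by edgeR, moved to 37 (36 higher, 1 lower) with total counts alone, 42 (41 and 1) when Rn7sk was set equal, 34 with at least 1 CPM required in 3 libraries, 131 by DESeq2, 56 by limma-trend, 1 with the replicate number as a block, and 0 with WT replicate 1 and KO replicate 3 left out. It ranged from 1 to 51 when 1 library was left out, and was 17 with RLE factors. The replicate numbers gave no sign of pairing. Deviations of same-numbered samples correlated at -0.02, 0.01 and -0.13 over 13451 loci, and those of differently numbered samples at -0.06 to 0.07. With 3 samples a group, this cannot exclude that samples were prepared together. Those first 2 scalings raised the median ratio of all tested loci to 0.23 and 0.20, and that of the long genes from 0.05 to 0.28 and 0.25. The latter was 0.13 for annotated long genes and 0.034 to 0.15 with 1 library left out, 0.15 without WT replicate 2. The median difference from matched genes was 0.12 under each scaling. This is no test of it, because a library's factor shifts members and matched genes nearly alike. The difference stayed above 0 with each library left out (0.07 to 0.15) and with 5 or 100 nearest genes (0.08 and 0.10). It was also above 0 with widths from 200 or 500 kb (0.08 and 0.14), and without the neural lists (0.07, or 0.12 for annotated long genes). It was 0.049 against genes of 50 to 100 kb, and -0.027 for extended rows. Over 53 named genes, 583 alternative values were compared: 426 kept direction and side of the threshold, 100 lost the call, 21 gained one and 36 changed sign. With total counts and with equal Rn7sk, in that order, the log2 fold change was 0.13 and 0.10 for Dmd, 0.20 and 0.16 for Robo1, 0.096 and 0.077 for Cacna2d1, 0.18 and 0.16 for Ptprg, 0.22 and 0.18 for Mast4, 0.20 and 0.17 for Lpp, 0.082 and 0.041 for Rere, 0.23 and 0.21 for Snd1, and 0.13 and 0.11 for Vps13b. With the block it was 0.0053 for Robo1 and 0.0012 for Mast4. With 1 library left out, it ranged from -0.13 to 0.28 for Ptprd, -0.28 to 0.25 for Robo1, -0.0065 to 0.27 for Cacna1c, -0.11 to 0.018 for Ptprg, -0.097 to 0.14 for Mast4, -0.11 to 0.069 for Lpp, -0.064 to 0.073 for Snd1, -0.056 to 0.245 for Rbms3, -0.095 to 0.086 for Oxr1 and -0.060 to 0.68 for Cpne4. The causes were not tested. At this depth and with 3 samples a group, 24% of simulated 2-fold changes were recovered.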

Other observations

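Rows of 300 kb or more that carried several gene names were outside the rule. The 133 of them with 60 or more counts had a median log2 ratio of -0.05, with 0 called higher and 1 lower by edgeR, 21 higher and 22 lower at an unadjusted p under 0.05, and 12 and 13 called by DESeq2.

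The 15 members that GENCODE M21 lists as noncoding or as pseudogenes had a median log2 ratio of -0.14, 0.41 below matched genes of 10 to 50 kb. EdgeR called 0 of them, 0 were higher and 2 lower at an unadjusted p under 0.05, and DESeq2 called 0.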
